A study of Saccharomyces cerevisiae with 2 samples.

Results

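The genes described here encode the enzymes that build sphingolipids in *Saccharomyces cerevisiae*, and they comprised 10 of the 6207 ORFs in the deposited table. They were chosen by gene name, though with earlier results of these data known. The set is the ORFs of LCB1 (YMR296C), LCB2 (YDR062W), TSC10 (YBR265W), SUR2 (YDR297W), LAG1 (YHL003C), LAC1 (YKL008C), AUR1 (YKL004W), CSG2 (YBR036C), IPT1 (YDR072C) and ELO3 (YLR372W). RNA was compared on 2-colour DNA microarrays between caspofungin-treated and untreated cells of a wsc1 mutant in the BY4741 background, so the mutation was shared by both RNAs. The labels do not say which allele it is, and WSC1 encodes a plasma membrane sensor of cell wall stress. Caspofungin is an antifungal drug that inhibits the synthase of the wall polymer β-1,3-glucan. Cultures grown in YEPD medium at 24 °C were split, and the treated portion was given 15 ng/ml of the drug for 2 h before both were harvested. Replicate 1 carried the caspofungin RNA in Cy3 and replicate 2 carried it in Cy5. Whether these 2 replicates are separate cultures is not given, so the p-values measure only the spread between the columns, which may be technical.

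Yeast sphingolipids are made at the endoplasmic reticulum and the Golgi and collect in the plasma membrane, where glucan synthase also lies. Serine palmitoyltransferase joins serine to a fatty acyl-CoA, and the product is reduced and hydroxylated to a long chain base. Ceramide synthase couples that base to a very long chain fatty acid supplied by a separate elongation cycle, and inositol phosphate and mannose are then added to the ceramide to give the complex sphingolipids.

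Values are log2 ratios of the dyes. The sign of replicate 1 was turned, so that the caspofungin RNA stands on the same side of the dye ratio throughout. Which dye is the numerator is not stated in any source used here. With Cy5 as the numerator, a positive value means a higher RNA level after caspofungin, and with Cy3 as the numerator it means a lower level. Sizes and the agreement between replicates do not depend on this, but all sides would exchange.

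The sphingolipid synthesis genes lay on both sides of 0. ELO3 and SUR2 had the largest ratios of the set, both on the negative side, with means of -0.79 ± 0.28 and -0.54 ± 0.27 (SD, n = 2). TSC10, LAC1, IPT1 and CSG2 had means between 0.29 and 0.35 on the positive side. LCB2 was close to 0. No member passed the test over all ORFs (limma, Benjamini-Hochberg adjusted p of 0.366 or more).

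**Figure D1:**
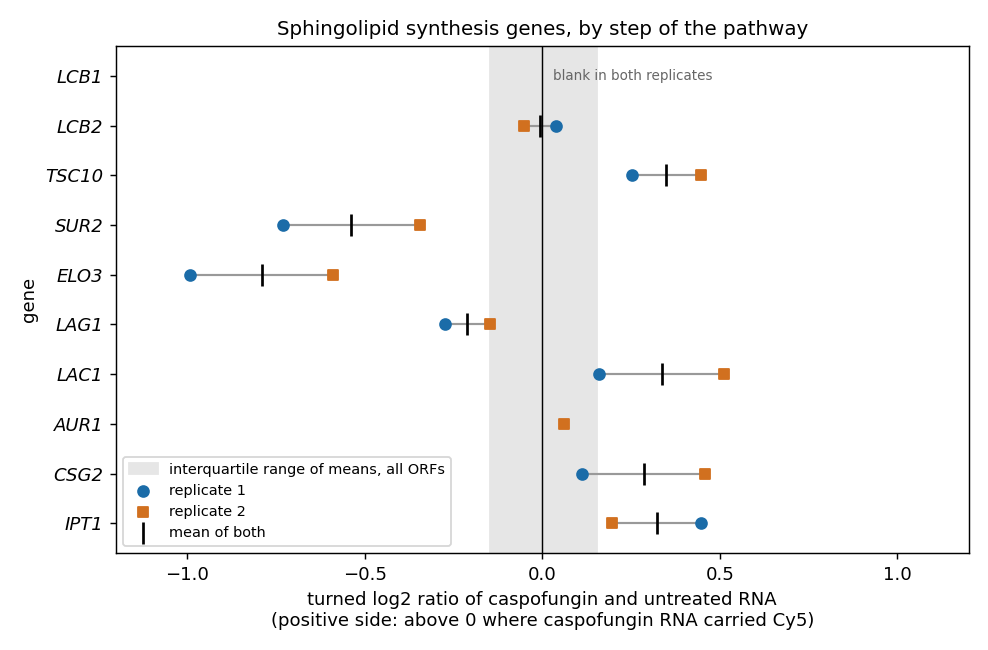
Log2 ratio of each sphingolipid synthesis gene (horizontal axis, log2 units, sign of replicate 1 turned), ordered by step of the pathway, with replicate 1 as circles, replicate 2 as squares, their mean as a bar and the interquartile range of the means of all ORFs in grey. SUR2, ELO3 and LAG1 were negative in both replicates, and TSC10, LAC1, CSG2 and IPT1 were positive in both.

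Of the 10 members, 8 had a value in both replicates, against 50.2% of all ORFs. LCB1, a subunit of serine palmitoyltransferase, was blank in both replicates. AUR1, the catalytic subunit of inositol phosphorylceramide synthase, was blank in replicate 1 and had 0.062 in replicate 2. No source used here states why entries were left blank, so nothing can be said of these RNA levels. The counts below therefore cover 8 members and not all of them.

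The pathway starts with serine palmitoyltransferase, of which LCB2 was the only subunit gene with values. LCB2 had 0.039 in replicate 1 and -0.051 in replicate 2, a mean of -0.0057 ± 0.064 (95% confidence interval -0.31 to 0.29). It was the single measured member whose replicates fell on opposite sides after turning.

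TSC10 encodes the reductase that acts on the product of serine palmitoyltransferase. Its values were 0.25 in replicate 1 and 0.45 in replicate 2. Both were positive, and the mean of 0.35 ± 0.14 was the 180th highest of the 3117 ORFs measured in both replicates. The interval of this mean ran from 0.024 to 0.68, and the adjusted p was 0.367 (limma).

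SUR2 encodes the hydroxylase that turns dihydrosphingosine, the product of the TSC10 reductase, into phytosphingosine. Its values were -0.73 in replicate 1 and -0.35 in replicate 2. Both were negative, and the mean of -0.54, a size of 1.45-fold, was the 122nd lowest of the 3117 ORFs. The interval ran from -0.95 to -0.13 and the adjusted p was 0.366 (limma). The consecutive enzymes TSC10 and SUR2 thus had ratios of opposite sign, and TSC10 exceeded SUR2 by 0.98 in replicate 1 and by 0.79 in replicate 2, a mean of 0.89 ± 0.14. The differences between genes given here are descriptions with their SD, and they were not tested. An exact sign-flip test could not give a p below 0.5 with 2 replicates.

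ELO3 encodes the elongase that completes the very long chain fatty acids used for ceramide. Its values were -0.99 in replicate 1 and -0.59 in replicate 2. Both were negative, and the mean of -0.79, a size of 1.73-fold, was the 55th lowest of the 3117 ORFs. The interval ran from -1.21 to -0.37 and the adjusted p was 0.366 (limma). With each column centred on its median, which left the mean at -0.79, ELO3 passed the test at an adjusted p of 0.010 (limma), as did 3.69% of all ORFs. Over the 9 alternatives with a test its adjusted p ranged from 0.0079 to 1.00, and it passed in 3 of them. All 3 used a prior for the spread of single ORFs that was estimated on centred columns or on centred and scaled columns. ELO3 was the only measured member to pass under any of these alternatives, and its spread between replicates was like that of SUR2.

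In the order of ORF names, YLR370C stood 2 places before ELO3 and had a deposited value of 1.14 in replicate 1, close to the 0.99 of ELO3 there, and -0.15 in replicate 2, where ELO3 had -0.59. Within 3 places after ELO3, YLR373C and YLR375W had deposited values of -0.087 and -0.31 in replicate 1, on the other side of 0. The remaining neighbours of ELO3 within 3 places were blank there. Of the 8 measured members, 1 had a neighbour above 1 in replicate 1 within 3 places, against 5.77% of all ORFs. Whether the position of probes contributed to the value of ELO3 in replicate 1 was not tested. In replicate 2 alone, 4.14% of the measured ORFs were at or below the value of ELO3.

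The paralogues LAG1 and LAC1 both encode ceramide synthase subunits that can replace each other. LAG1 had -0.27 in replicate 1 and -0.15 in replicate 2, a mean of -0.21 ± 0.090. LAC1 had 0.16 in replicate 1 and 0.51 in replicate 2, a mean of 0.34 ± 0.25. LAC1 exceeded LAG1 by 0.43 in replicate 1 and by 0.66 in replicate 2, a mean of 0.55 ± 0.16, and this difference was not tested. Neither passed the test (limma, adjusted p = 0.429 for LAG1 and 0.397 for LAC1), and their intervals were -0.52 to 0.097 and -0.060 to 0.73. No source used here states the probe sequences, and whether related genes shared signal was not tested for this or any other pair of paralogues.

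CSG2 and IPT1 act at the late steps. CSG2 encodes a regulatory subunit needed for adding mannose to inositol phosphorylceramide. CSG2 had 0.11 in replicate 1 and 0.46 in replicate 2, a mean of 0.29 ± 0.25 (limma, adjusted p = 0.415). IPT1 encodes the transferase that adds the terminal inositol phosphate to form the most complex yeast sphingolipid. IPT1 had 0.45 in replicate 1 and 0.20 in replicate 2, a mean of 0.32 ± 0.18 (limma, adjusted p = 0.385). Both genes were positive in both replicates, with the greater value in replicate 2 for CSG2 and in replicate 1 for IPT1, and both intervals included 0 (-0.11 to 0.68 and -0.025 to 0.67).

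Ordered by their means, the measured members ran ELO3, SUR2, LAG1, LCB2, CSG2, IPT1, LAC1 and TSC10. From CSG2 to TSC10 the means differed by less than the SD of any of these genes. ELO3 was below SUR2 within each replicate, by 0.26 in replicate 1 and by 0.24 in replicate 2, a difference of 0.25 ± 0.011, although the ranges of the genes over both replicates overlapped. The 4 positive and 3 negative genes were grouped by the sign of both replicates, so their values could not overlap. Those nearest to 0 in each group were 0.11 for CSG2 in replicate 1 and -0.15 for LAG1 in replicate 2.

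As a set, the measured members had a median of 0.14, against 0.010 for all ORFs, and 4 of the 8 were on the positive side, against 52.1%. The median hides the split between the sides. The median size of the mean without regard to sign was 0.33 for the members and 0.15 for all ORFs, and the median SD between replicates was 0.21 against 0.13. After turning, 7 of the 8 members kept to a single side of 0, against 64.1% of all ORFs. The means of 7 members lay outside the interquartile range of all ORFs, from -0.15 to 0.15, against 50% by construction. Those of 6 lay below the 10th or above the 90th percentile, against 20%, and the threshold was chosen after the values were seen. The 4 on the positive side lay between percentiles 90.2 (CSG2) and 94.3 (TSC10), so this count depends on the threshold. ELO3 and SUR2 lay at percentiles 1.8 and 3.9. In 1 of the 8, LCB2, the SD exceeded the size of the mean, against 45.2% of all ORFs. ELO3 was the only measured member with a mean beyond 1.5-fold and replicates of like sign. It lay on the negative side, as 3.3% of all ORFs did, and 0 members lay beyond 1.5-fold on the positive side, where 0.738% of all ORFs did.

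The test called 0 of the 8 members at an adjusted p of 0.05, and it called 0% of all ORFs (limma). At an unadjusted p of 0.05 it gave 3 members, ELO3, SUR2 and TSC10, against 13.4% of all ORFs. With the plain one-sample statistic no member was below an unadjusted p of 0.05, and 0 passed after adjustment. After adjustment the fit could thus not separate any single member from 0. The intervals given here are for single ORFs and are not adjusted, and those of ELO3, SUR2 and TSC10 excluded 0. The fit also does not show that a member was unchanged: an interval such as that of IPT1 reached 0.67.

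**Figure D2:**
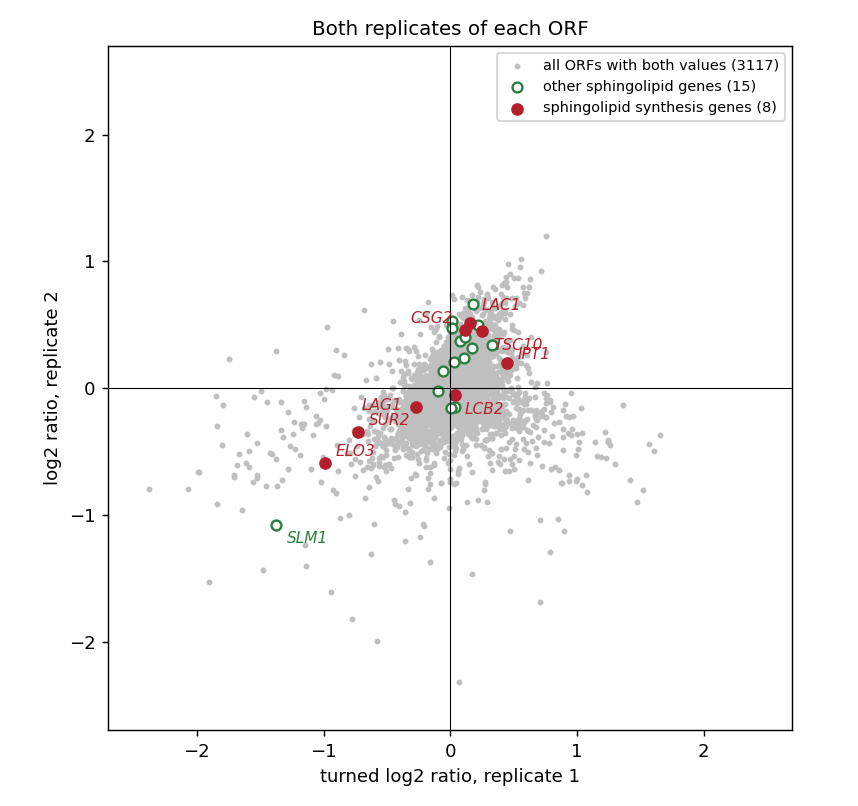
Turned log2 ratio of replicate 1 (horizontal axis) against the log2 ratio of replicate 2 (vertical axis) for the 3117 ORFs with both values in grey, the 8 measured sphingolipid synthesis genes as filled points and 15 other sphingolipid genes as open points. ELO3, SUR2 and LAG1 lie in the lower left, TSC10, LAC1, CSG2 and IPT1 in the upper right, and SLM1 lies furthest to the lower left of the genes marked.

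The replicates agreed only in part over the whole table. Before turning, the Pearson correlation of the columns across the 3117 ORFs was -0.29 and the Spearman correlation was -0.33, and the ORFs share both arrays and are not independent. Replicate 1 held 3705 values and replicate 2 held 3166. The medians of the turned columns over ORFs with both values were 0.035 and -0.042.

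Another 28 genes of the pathway were taken from a list, by role. TSC3 had no entry under its ORF name among the 6207 ORFs, so it was not analysed here. Of the other 27, 15 had a value in both replicates, 2 had a value in replicate 1 only and 10 were blank in both. Of the 15, 11 had a mean on the positive side, with a median of 0.22 over all 15. Both replicates were positive for 10, against 31.6% of all ORFs, and both were negative for 2, against 32.4%. With columns centred on their medians both were positive for 7, as ELO2, TSC13 and ISC1 moved just below 0 in replicate 1, and both were negative for 2, against 31.3% of all ORFs on each side. None passed the test (limma, adjusted p of 0.366 or more). LIP1, LCB3 and SLM1, 3 of the 15, had an unadjusted p below 0.05, against 13.4% of all ORFs. In replicate 1 the turned median of the 15 was 0.039, and in replicate 2 it was 0.32, so the lean to the positive side was mostly that of replicate 2.

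The other enzymes of the elongation cycle did not share the sign of ELO3. ELO2, an elongase related to ELO3, had 0.026 in replicate 1 and 0.21 in replicate 2. IFA38, the ketoreductase of the cycle, had 0.11 and 0.24, and PHS1, its dehydratase, had 0.18 and 0.66. TSC13, the enoyl reductase that closes the cycle, had 0.011 and 0.53. As deposited and turned, all 4 were positive in both replicates, against 31.6% of all ORFs, with means from 0.12 to 0.42. ELO3 was negative in both, as were 32.4% of all ORFs. With columns centred on their medians 2 of the 4 were positive in both, against 31.3% of all ORFs. ELO2 and TSC13 moved to -0.0097 and -0.024 in replicate 1, and ELO3 stayed negative in both. PHS1 had the highest mean of the whole pathway, 0.42 ± 0.34 (limma, adjusted p = 0.385), with a larger value in replicate 2 than in replicate 1. ELO2 exceeded ELO3 by 1.02 in replicate 1 and by 0.80 in replicate 2, a mean of 0.91 ± 0.16. In the order of ORF names, TSC13 also had neighbours with high deposited values in replicate 1. Within 3 places, YDL014W, YDL016C and YDL018C had 1.14, 1.80 and 1.06 there, YDL012C had -0.072 and the rest were blank. Whether the position of probes contributed to the value of TSC13 was not tested.

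At the ceramide step, LIP1 encodes the small subunit that works with both LAG1 and LAC1. LIP1 had 0.22 in replicate 1 and 0.50 in replicate 2, a mean of 0.36 ± 0.20 (limma, adjusted p = 0.372), on the side of LAC1. SCS7, the hydroxylase of the ceramide fatty acid, had -0.056 and 0.14, on opposite sides of 0. This hydroxylase therefore did not share the negative ratio of SUR2, the hydroxylase of the long chain base, in both replicates.

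Among the partners of the late enzymes, KEI1, the regulatory subunit that works with AUR1, had 0.17 and 0.32, a mean of 0.24 ± 0.10. SUR1 and CSH1 encode alternative catalytic partners of CSG2. SUR1 had 0.35 in replicate 1 and was blank in replicate 2, and CSH1 had 0.039 and -0.15, a mean of -0.054 ± 0.13. In replicate 1 CSG2 and CSH1 differed by 0.074, and in replicate 2 by 0.61, so their difference of 0.34 ± 0.38 was smaller than its SD.

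Among the genes that break sphingolipids down, the ceramidases were nearest to 0. ISC1, the phospholipase that releases ceramide from complex sphingolipids, had 0.010 and 0.47, a mean of 0.24 ± 0.33, carried by replicate 2. The ceramidases YPC1 and YDC1 had means of -0.061 ± 0.056 and -0.076 ± 0.11. LCB3, a phosphatase of phosphorylated long chain bases, had 0.33 and 0.34, a mean of 0.33 ± 0.0072 and the smallest SD of the pathway (limma, adjusted p = 0.366). The other 6 genes of long chain base handling were blank in both replicates, namely the kinases LCB4 and LCB5, the phosphatase YSR3, the lyase DPL1, HFD1 and RSB1.

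Of the regulators, ORM1 and ORM2 encode related membrane proteins that inhibit serine palmitoyltransferase. ORM1 had 0.074 and 0.37, a mean of 0.22 ± 0.21, and ORM2 had 0.11 and 0.41, a mean of 0.26 ± 0.21. The paralogues differed by only 0.040 and 0.037 in the replicates, unlike LAG1 and LAC1. The kinase YPK1, which relieves that inhibition, had 0.36 in replicate 1 and was blank in replicate 2, and YPK2, PKH1, PKH2 and SLM2 were blank in both.

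SLM1 had the largest ratio of the pathway. SLM1 encodes a lipid-binding adaptor of the TORC2 kinase complex that acts upstream of the Ypk kinases. Its values were -1.38 in replicate 1 and -1.08 in replicate 2, both negative and close to each other. The mean of -1.23 ± 0.21, a size of 2.34-fold, was the 13th lowest of the 3117 ORFs, with an interval from -1.60 to -0.86 and an adjusted p of 0.366 (limma). With centred columns the adjusted p was 0.00027 (limma), a setting in which 3.69% of all ORFs passed. Over the 9 alternatives with a test the adjusted p of SLM1 ranged from 0.00023 to 0.999, and SLM1 passed in 3 of them. All 3 used a prior estimated on centred columns or on centred and scaled columns. When the centred columns were given the prior estimated before centring, the adjusted p was 0.389 (limma). SLM1 overlaps YIL105W-A in the RefSeq gene table, and RNA of these overlapping genes cannot be told apart here. No other gene on either list overlapped another gene in that table.

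**Figure D3:**
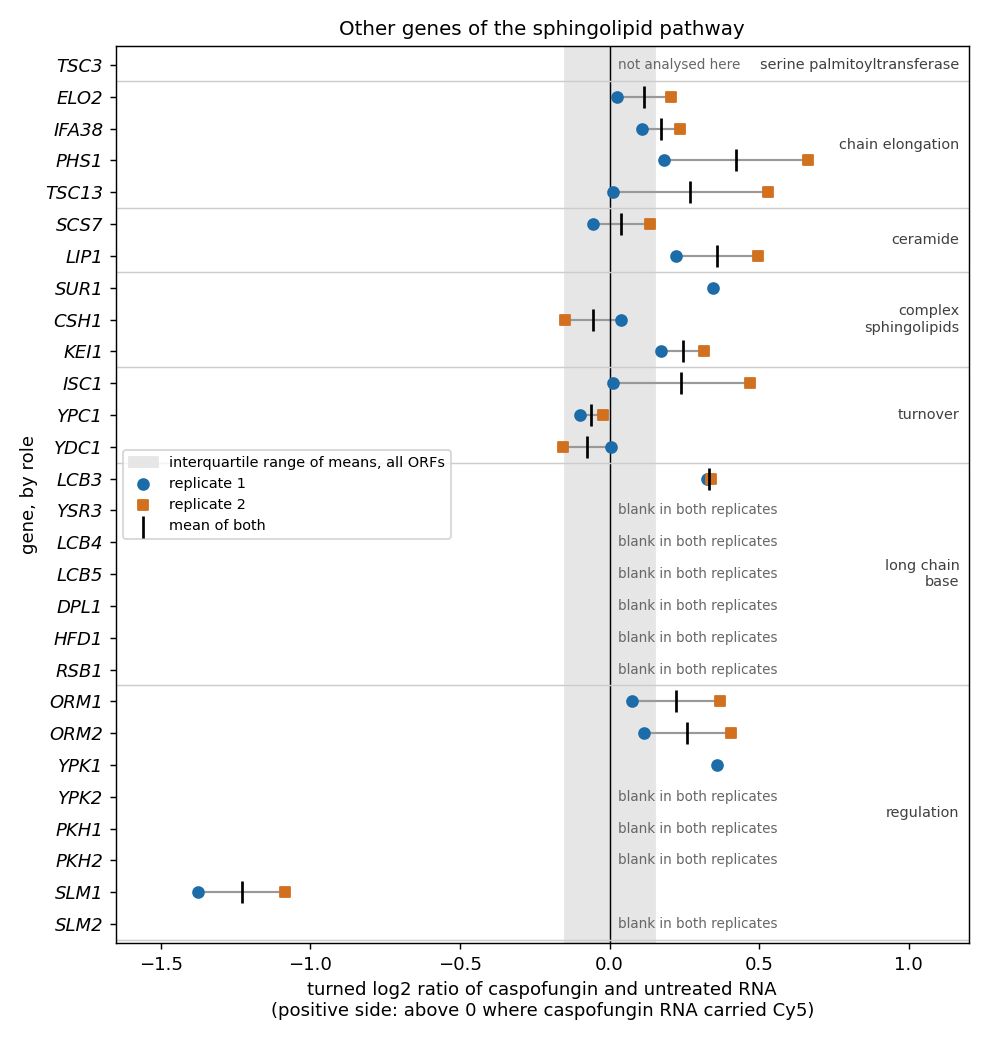
Log2 ratio of 28 other sphingolipid genes (horizontal axis, log2 units, sign of replicate 1 turned), grouped by role, with replicate 1 as circles, replicate 2 as squares, the mean as a bar and the interquartile range of the means of all ORFs in grey. The 4 elongation genes were positive in both replicates, against 31.6% of all ORFs (2 of them, IFA38 and PHS1, also with columns centred). SLM1 was at -1.38 and -1.08, and 10 genes were blank in both.

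The part of each ratio that did not turn with the dyes was measured by the mean of the deposited values before turning. For the members it ranged from -0.12 for IPT1 to 0.20 for ELO3, and it was 0.19 for SUR2, 0.18 for LAC1 and 0.17 for CSG2. By arithmetic it is smaller in size than the mean after turning wherever the turned replicates share a sign. It was so in the same 7 of the 8 members, all but LCB2, against 64.1% of all ORFs. This count is therefore no separate check on the dyes. Leaving out a replicate moved the mean by over 1.5 times for SUR2 (to -0.35 in replicate 2 alone), LAC1 (to 0.16 in replicate 1 and 0.51 in replicate 2), CSG2 (to 0.11 and 0.46) and IPT1 (to 0.20 in replicate 2). LCB2, near 0, changed sign. Those of ELO3, TSC10 and LAG1 moved by less.

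**Figure D4:**
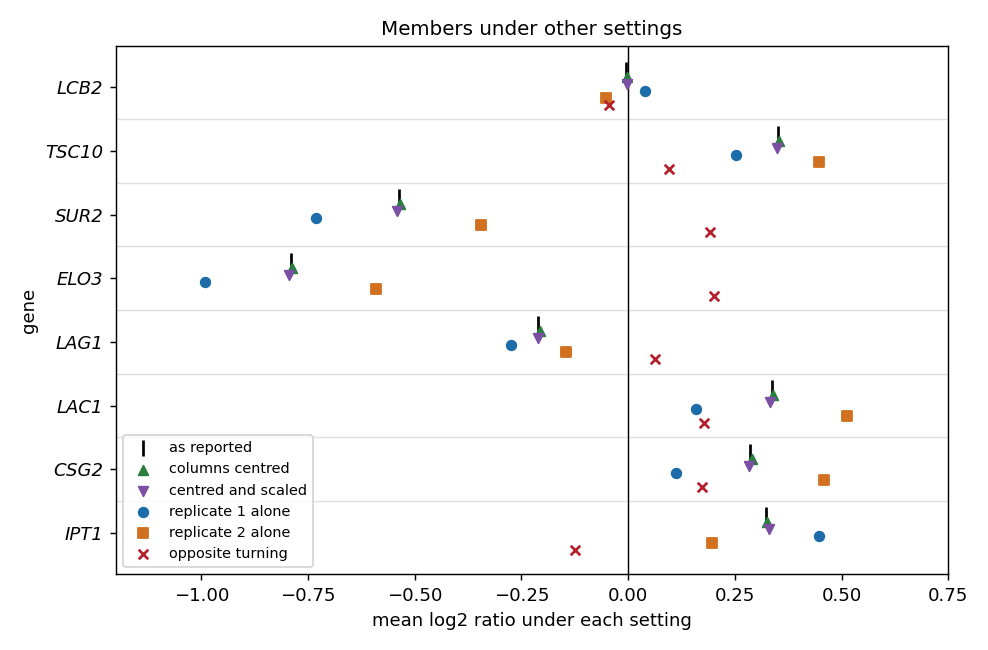
Mean log2 ratio of each of the 8 measured members (horizontal axis) as reported, with columns centred, with columns centred and scaled, in each replicate alone and with replicate 1 left unturned (opposite turning). Centring and scaling left each member in place, for example ELO3 near -0.79, and the opposite turning put ELO3, SUR2 and LAG1 on the positive side at 0.20, 0.19 and 0.064.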

How the data were processed

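RNA of caspofungin-treated and untreated wsc1 mutant cells was compared on 2-colour arrays. The authors deposited 1 log2 ratio per ORF and replicate. The log2 scale was read from the values, since 2 raised to the power of each had at most 4 decimals in 100% of cases, within 0.001 of the last decimal. The numerator dye, the centring, the background correction and the normalization are not stated in any source used here, and spot signals were not used, so the precision rests on the number of arrays. The deposited column medians were -0.073 and -0.044.

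The sign of replicate 1 was turned, on the assumption that both columns are the same dye ratio. The 3117 ORFs with both values were fitted against 0 (limma 3.58.1, R 4.3.3; an intercept fitted by lmFit and moderated by eBayes, two-sided, Benjamini-Hochberg adjustment over all of them, threshold 0.05). The 2 control entries were left out. The fit was tested on data simulated with its own prior, which does not show how many true changes it finds in these data. Folds are 2 to the power of the size of the mean. Symbols of all 10 members and all 28 other genes matched the RefSeq gene table by locus tag. The members and lists were chosen with earlier results of these data known. All members are named, whatever their values, and other genes come from the fixed list, named with their values by role; all those in it are accounted for. The differences between genes, the order of ORF names and the settings that exchange priors were chosen after the values were seen. Alternatives were turning, centring, scaling, prior, statistic, ORFs tested, minimum fold and each replicate left out.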

Additional observations from a re-analysis of the deposited data

How the results depend on the processing

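As reported, 0 ORFs, 0 members and 0 other sphingolipid genes passed. They were also 0 with a minimum fold of 1.2, the robust prior, the plain statistic, ORFs measured in at least 1 column and the opposite turning, where members at an unadjusted p of 0.05 numbered 0 to 3. With centred columns 115 ORFs, 1 member (ELO3) and 1 other gene (SLM1) passed, and with centred and scaled columns 103, 1 and 1. Among settings chosen after seeing the data, giving the uncentred columns the prior estimated after centring gave 121, 1 and 1, and giving the centred columns the prior estimated before centring gave 0 of each. The prior had 2.64 degrees of freedom as reported and 17.1 after centring, so the calls went with the prior. The median of the member means, 0.14, was 0.14 with centred and with scaled columns, 0.135 under the opposite turning, 0.062 with ORFs in at least 1 column (which adds AUR1) and 0.073 to 0.076 with a replicate left out. The number of members on the positive side was 4 to 6 over these settings. Under the opposite turning the mean changed sign for SUR2 (0.19), ELO3 (0.20), LAG1 (0.064), IPT1 (-0.12), YPC1 (0.039) and SLM1 (0.15). With replicates left out, the range spanned 0 for LCB2 (-0.051 to 0.039), SCS7 (-0.056 to 0.14), CSH1 (-0.15 to 0.039) and YDC1 (-0.16 to 0.0046); the cause was not tested. With 1 replicate left there was no test, and no count of calls. Each ratio already pairs the treated and untreated RNA of its replicate, so the fit against 0 is itself paired and no separate paired analysis was run.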

Other observations

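The 2 control entries of the table kept their deposited sign when the dyes were exchanged. The entry named Arabidopsis had 0.29 in replicate 1 and 0.28 in replicate 2, and the entry named 3XSSC had -0.12 and -0.17. Among the sphingolipid synthesis genes LCB2 alone did so, with deposited values of -0.039 and -0.051. This restates that its turned replicates lay on opposite sides of 0, while 64.1% of all ORFs had turned replicates of like sign.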
